A study of Mus musculus with 20 samples.

Results

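The 5 control bladders of a mouse bladder cancer study are described here by the genes that give the brightest array signal. They are 5 of the 20 samples of the series, numbered 1, 2, 4, 5 and 6 by their labels. Genes were ranked by their mean deposited level on the log2 scale, where 1 unit is 2-fold, among the 30142 genes that a single symbol names and again among the 19046 of these that code for protein. The ranking was done once for control bladder 1 and 2, called arrays 1 and 2 below, and once for control bladder 4, 5 and 6, called arrays 4, 5 and 6.

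All samples of the series came from FVB/N mice that carry floxed alleles, Rbf/f among them, and lack p107 (p107-/-), so the control bladders carry these alleles too. The series calls the controls normal bladders, and their labels give bladder as the tissue, with no inoculation or drug of their own beside the treatment protocol shared by the whole series. In the other samples, 7 bladder tumors, 3 treated bladders, 4 metastases and 1 treated metastasis, tumors were started with an adenovirus that codes for Cre, and some mice then received CM272 with CDDP (cisplatin). Age and sex are not in the labels, which also do not say whether each control came from another animal, so the spread between arrays may be technical.

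The bladder wall has a few main tissues. The urothelium, a layered epithelium, lines the lumen, and its outermost cells cover themselves with plaques built of uroplakins. A matrix-rich layer of fibroblasts and vessels lies beneath it, and around that runs the detrusor, a thick coat of smooth muscle that contracts through its own actin and myosin isoforms to empty the organ. Much of the RNA of any tissue serves translation and respiration, so ribosomal, mitochondrial and chaperone genes usually head a ranking beside the genes of the tissue.

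The 2 sets of arrays were made from these data and not from the labels, with control bladder 4, 5 and 6 taken as near the mean. Over all genes, single arrays did not differ that way. Their median absolute difference from the mean of the other 15 arrays was 0.15 on each of control bladder 1 and 2. It was 0.17, 0.16 and 0.17 on control bladder 4, 5 and 6. Across genes, the deviation from the mean of all 20 arrays correlated at r = 0.61 between control bladder 1 and 2. The highest such r of control bladder 4, 5 and 6 with any other array was 0.07, 0.08 and 0.14, and in each case that array was bladder tumor 1. The same held for bladder tumor 3, 4 and 5, at 0.08, 0.10 and 0.08, and for metastasis 3 and 4, at 0.11 and 0.09. Such low values were thus not particular to these controls. Differences between the sets were therefore used in making them, and they are given below as descriptions with no test.

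No scanner files were used here, so a background level was taken from 1435 genes of odorant, taste and pheromone receptors, which the bladder is not known for. Their 99th percentile was 6.31 and 6.42 on arrays 1 and 2, and 6.57, 6.56 and 6.77 on arrays 4, 5 and 6. A gene is called above background when it passes this level on every array of a set. The rule is stricter for arrays 4, 5 and 6, where the levels are higher and more arrays must pass. Counts of the 2 sets are therefore not on equal terms, here and below. Cd44, of the basal urothelium list, passed only on arrays 1 and 2. Its means were 6.69 there and 6.72 on arrays 4, 5 and 6. On control bladder 1 and 2, 4543 genes did so (15.1% of all genes), and on control bladder 4, 5 and 6, 2810 (9.32%). Over all 5 arrays the count was 2736 (9.08%). Array medians lay between 5.29 and 5.43 over these genes, and between 5.19 and 5.32 over all deposited rows. The number of arrays limits the precision of every value. A level depends on the probes of its gene as well as on its RNA, so a rank says how bright a gene is on this array and not how many transcripts it has.

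Few of the brightest of all genes mark a tissue. Of the 100 brightest genes of control bladder 1 and 2, 57 were small or ribosomal RNA genes, 29 pseudogenes, 4 mitochondrial genes and 4 other protein-coding genes. The 100 brightest of control bladder 4, 5 and 6 held 56, 32, 3 and 3 of these kinds, and 88 genes were in both lists. In 41 of the first 100 and 39 of the second, some value on any of the 20 arrays of the series passed 16. That is above what a scanner of 16 bits can record, and which step gave such values is unknown. Among all genes, 20 and 20 passed 16 on arrays 1 and 2, and 25, 8 and 3 on arrays 4, 5 and 6. The array does not separate all genes: 15 of the 100 brightest genes of control bladder 1 and 2 had exactly the values of another gene on all 5 arrays. Levels of ribosomal genes with near-identical pseudogenes are uncertain for the same reason.

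Among these, Traj55, a joining segment of the T cell receptor alpha locus, ranked first in both sets, at 19.32 and 19.37 on arrays 1 and 2, and 19.23, 19.28 and 19.34 on arrays 4, 5 and 6. Of 11 measured lymphocyte genes, 0 were above background in either set, where 15.1% and 9.32% of all genes were. The 28S ribosomal RNA gene Rn28s1 read 15.82 on both control bladder 1 and 2, against 14.98, 14.92 and 14.87 on arrays 4, 5 and 6. The small ribosomal RNA of mitochondria, mt-Rnr1, read 15.67 and 15.66 on arrays 1 and 2, against 14.53, 13.86 and 14.61 on arrays 4, 5 and 6.

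The predicted gene Gm15501 held coding rank 1 on arrays 1 and 2, at a mean of 15.57, and 2 on arrays 4, 5 and 6, at 14.42. The named protein-coding genes at the head of both sets included genes of mitochondria and ribosomes and the chaperone Hspa8. COX1, the catalytic subunit of cytochrome c oxidase, read 15.43 on each of control bladder 1 and 2, and 14.66, 14.91 and 14.67 on arrays 4, 5 and 6. Rpl41, which codes for a very short ribosomal protein, read 15.07 and 15.06 on arrays 1 and 2, and 13.95, 14.03 and 13.99 on arrays 4, 5 and 6. Hspa8, the chaperone HSC70 that every cell makes, read 14.56 and 14.68 on arrays 1 and 2, and 13.41, 12.73 and 12.68 on arrays 4, 5 and 6. For these 3 genes arrays 1 and 2 both lay above all of arrays 4, 5 and 6; they were among the brightest, where the gap was wide for genes in general. The median difference, control bladder 1 and 2 minus control bladder 4, 5 and 6, was 1.42 for the 8 protein-coding genes with a mean above 12 over the 5 arrays, 1.43 for the 15 from 10 to 12, and 0.29 for the 179 from 8 to 10. Eef1a1, the elongation factor that brings tRNA to the ribosome, read 12.58 on both control bladder 1 and 2, and 11.83, 11.67 and 11.56 on arrays 4, 5 and 6. B2m, the light chain of MHC class I, read 13.90 and 13.98 on arrays 1 and 2, and 11.65, 11.58 and 11.77 on arrays 4, 5 and 6. ND2 and ND3, subunits of respiratory complex I, averaged 14.87 and 14.20 on arrays 1 and 2, and 12.72 and 11.89 on arrays 4, 5 and 6.

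**Figure D1:**
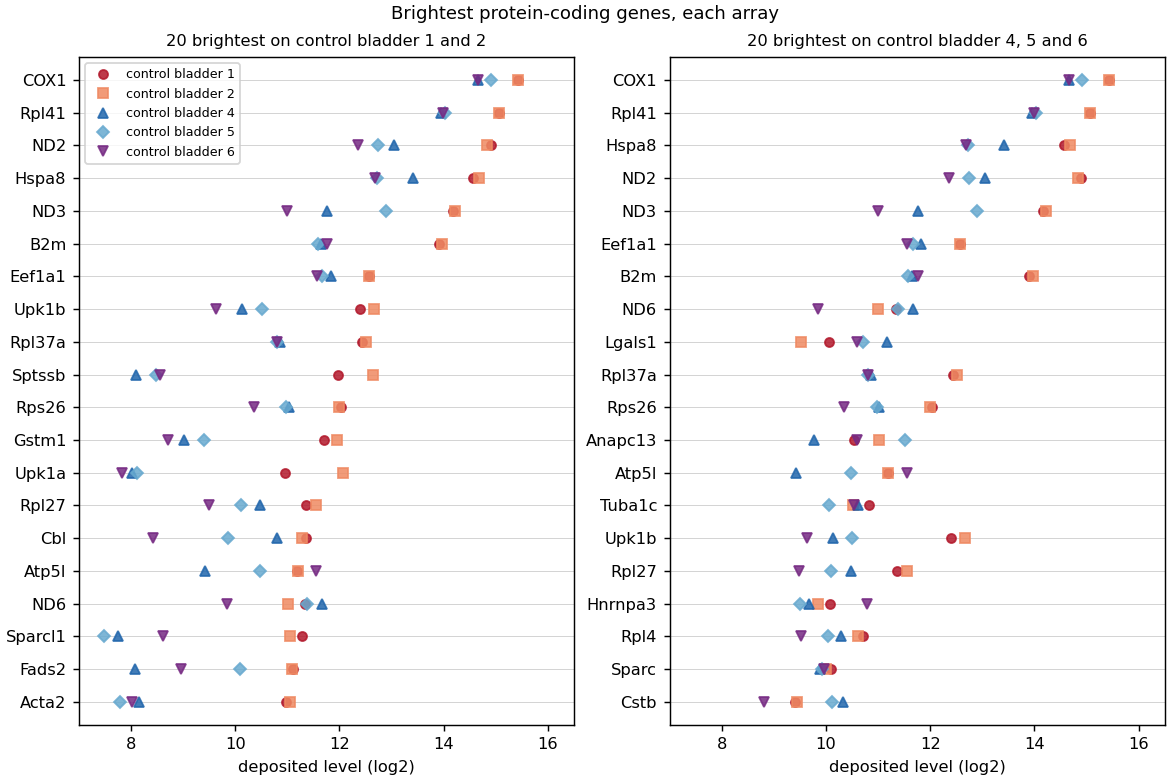
Deposited log2 level (x axis) of the 20 brightest named protein-coding genes of control bladder 1 and 2 (left) and of control bladder 4, 5 and 6 (right), predicted genes left out; each point is 1 array. COX1, Rpl41 and Hspa8 are near the top of both panels, while Upk1a, Sptssb, Sparcl1 and Acta2 appear only on the left, with control bladder 1 and 2 to the right of the other 3 arrays.

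Below this shared head the 2 rankings of protein-coding genes parted. Their 100 brightest had 65 genes in common, and 35 were in each list alone. Of the 35 in control bladder 1 and 2 alone, 7 were smooth muscle genes and 2 luminal urothelial genes. Of the 35 in control bladder 4, 5 and 6 alone, 0 belonged to either list. That set's own genes included Lyz2, the lysozyme of macrophages, which stood at rank 250 of the protein-coding genes (its coding rank) in control bladder 1 and 2 and at 32 in control bladder 4, 5 and 6. Lgals1, a galectin of many mesenchymal and immune cells, was shared but ranked 45 in control bladder 1 and 2 and 10 in control bladder 4, 5 and 6.

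Smooth muscle gave the brightest tissue list of control bladder 1 and 2. The mean of its 25 measured genes was 7.90 and 7.91 on arrays 1 and 2, against 6.59, 6.60 and 6.64 on arrays 4, 5 and 6. In control bladder 1 and 2, 21 of the 25 genes stood above background, where 15.1% of all genes did, and in control bladder 4, 5 and 6, 9 of the 25, against 9.32% of all genes. Arrays 1 and 2 both lay above all of arrays 4, 5 and 6 in 22 of the 25 genes, where 11.3% of all 30142 genes did so, and below them in 0, against 14.6% of all genes. The median difference of the list, control bladder 1 and 2 minus control bladder 4, 5 and 6, was 1.10, and that of all genes -0.04. In whole tissue, fewer muscle cells and less muscle RNA per cell cannot be told apart. The part of technical differences between the arrays in this gap was not tested.

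Acta2, the smooth muscle alpha actin, was the brightest of the list in control bladder 1 and 2. It read 10.97 and 11.06 on arrays 1 and 2, and 8.14, 7.80 and 8.01 on arrays 4, 5 and 6, which put it at coding rank 24 on arrays 1 and 2 and 172 on arrays 4, 5 and 6. Myh11, the smooth muscle myosin heavy chain, read 10.04 and 9.86 on arrays 1 and 2, and 7.10, 7.28 and 7.21 on arrays 4, 5 and 6. Actg2, the gamma actin of visceral muscle, read 9.66 and 9.73 on arrays 1 and 2, and 6.92, 7.04 and 7.37 on arrays 4, 5 and 6. Acta2, Myh11 and Actg2 thus had a gap between the sets that was wider than their range within each. Over arrays 4, 5 and 6 the median range of the smooth muscle list was 0.35, near the 0.39 of all genes. Tagln (transgelin), an actin-binding protein, read 9.86 and 9.62 on arrays 1 and 2, and 7.68, 7.61 and 7.26 on arrays 4, 5 and 6. Flna, a filamin that crosslinks actin in many cell types, was closer, with 9.90 and 9.60 on arrays 1 and 2, and 8.20, 8.22 and 8.32 on arrays 4, 5 and 6. Pcp4, a calmodulin regulator, read 9.50 and 9.96 on arrays 1 and 2, and 7.74, 6.99 and 8.09 on arrays 4, 5 and 6.

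Flna, at 8.25, had the highest mean of the list in control bladder 4, 5 and 6, above Acta2 at 7.98. Desmin (Des), the intermediate filament of muscle, averaged 7.61 ± 0.14 on control bladder 1 and 2 (SD, n = 2) and 6.25 ± 0.14 on arrays 4, 5 and 6 (SD, n = 3), where it did not pass the background level. Calponin (Cnn1) averaged 7.95 ± 0.11 on arrays 1 and 2 and 6.13 ± 0.05 on arrays 4, 5 and 6. Myocardin (Myocd), the coactivator that drives smooth muscle genes, averaged 6.17 ± 0.11 on arrays 1 and 2 and 5.06 ± 0.12 on arrays 4, 5 and 6 and was above background in neither. Des, Cnn1 and Myocd were each higher on both arrays 1 and 2 than on any of arrays 4, 5 and 6. The 2 dimmest members in control bladder 1 and 2 were Ppp1r12b, a myosin phosphatase subunit, at 6.04 ± 0.01, and the small heat shock protein Hspb6 at 5.09 ± 0.03. On arrays 4, 5 and 6 they read 5.88 ± 0.10 and 5.14 ± 0.12. Their differences between the sets were 0.16 and -0.05.

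**Figure D2:**
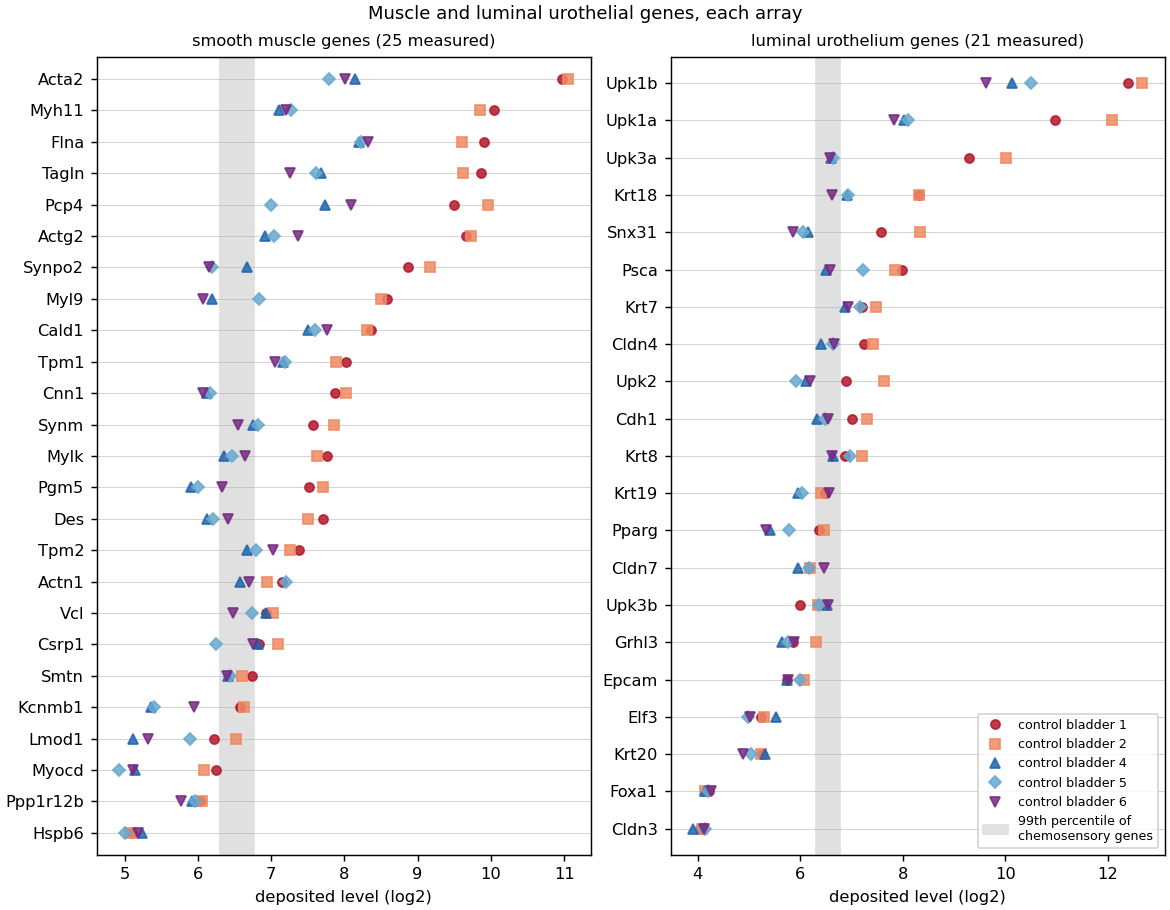
Deposited log2 level (x axis) of each measured smooth muscle gene (left) and luminal urothelium gene (right), ordered by the mean of control bladder 1 and 2; each point is 1 array, and the grey band is the range over the arrays of the 99th percentile of chemosensory receptor genes. Most muscle genes show control bladder 1 and 2 to the right of the other arrays, while the dim urothelial genes from Elf3 to Cldn3 lie together on all 5.

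Many smooth muscle genes are switched on through the CArG box, a motif of 10 bases that serum response factor binds together with myocardin. The upstream sequences of 3 muscle genes are shown because they carry the motif in its perfect form or with 1 changed core base. They come from RefSeq on GRCm38.p6, end at or before the annotated gene start, and have the motif in capitals.
Acta2, chr19:34255374-34255523, minus strand: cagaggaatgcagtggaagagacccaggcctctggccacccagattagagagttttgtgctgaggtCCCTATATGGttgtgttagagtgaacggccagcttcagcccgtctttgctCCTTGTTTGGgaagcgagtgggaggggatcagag
Myl9, chr2:156775284-156775433, plus strand: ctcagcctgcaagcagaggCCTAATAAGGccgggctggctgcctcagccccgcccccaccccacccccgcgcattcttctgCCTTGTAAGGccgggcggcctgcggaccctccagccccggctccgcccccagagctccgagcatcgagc
Vcl, chr14:20929148-20929297, plus strand: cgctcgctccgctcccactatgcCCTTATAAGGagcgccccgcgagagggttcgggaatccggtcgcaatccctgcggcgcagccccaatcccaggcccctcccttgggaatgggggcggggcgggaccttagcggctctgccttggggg
The perfect form has 6 core bases that are all A or T between CC and GG, reads the same way on both strands, and was searched in the 250 bases before each start. Of the 21 muscle genes with a window, 2 held it (Myl9 and Vcl), against 439 of 27025 genes in all (1.62%). With 1 core base allowed to be G or C, 6 of the 21 held it, against 2643 of all genes (9.78%); the looser form was chosen after the Acta2 sequence was seen. It occurred in 2 of 15 luminal urothelial, 3 of 14 fibroblast and 5 of 34 ribosomal protein genes. A match is only a match of letters, and the windows that lack one say nothing about the factor.

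These 3 genes differed in level. Myl9, a regulatory light chain of myosin, read 8.58 and 8.50 on arrays 1 and 2, and 6.20, 6.83 and 6.07 on arrays 4, 5 and 6. Vcl (vinculin), which anchors actin at adhesions in many cells, read 6.93 and 7.03 on arrays 1 and 2, and 6.93, 6.74 and 6.48 on arrays 4, 5 and 6. Vcl thus overlapped between the sets, unlike Acta2 and Myl9.

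The urothelium was represented by its uroplakins. Upk1b, a tetraspanin of the uroplakin plaque, was the brightest luminal urothelial gene in both sets: 12.40 and 12.67 on arrays 1 and 2, and 10.14, 10.51 and 9.63 on arrays 4, 5 and 6. It held coding rank 10 on arrays 1 and 2 and 18 on arrays 4, 5 and 6. Upk1a read 10.96 and 12.08 on arrays 1 and 2, and 8.02, 8.11 and 7.83 on arrays 4, 5 and 6. It held rank 16 on arrays 1 and 2 and 171 on arrays 4, 5 and 6. Upk3a, a single-pass uroplakin that pairs with Upk1b, read 9.30 and 10.02 on arrays 1 and 2, and 6.60, 6.64 and 6.58 on arrays 4, 5 and 6. The 3 genes were higher on arrays 1 and 2, with Upk1a and Upk3a lower on control bladder 1 than on 2. Of the 5 uroplakin genes measured, 4 were above background on control bladder 1 and 2 (15.1% of all genes). On arrays 4, 5 and 6 (9.32% of all genes) 2 were, Upk1a and Upk1b. Upk3b, which mesothelium makes as well, was the exception in direction, at 5.99 and 6.34 on arrays 1 and 2, and 6.52, 6.36 and 6.54 on arrays 4, 5 and 6.

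Over all 21 measured luminal genes the list mean was 7.01 and 7.28 on arrays 1 and 2, and 6.23, 6.34 and 6.23 on arrays 4, 5 and 6. Of the 21, 12 stood above background on arrays 1 and 2 (15.1% of all genes) and 3 on arrays 4, 5 and 6 (9.32% of all genes). Arrays 1 and 2 both lay above all of arrays 4, 5 and 6 in 11 and below them in 1, where 11.3% of all genes lay above and 14.6% below. Krt18, a keratin of simple epithelia, averaged 8.32 ± 0.01 on control bladder 1 and 2 (SD, n = 2) and 6.82 ± 0.18 on arrays 4, 5 and 6 (SD, n = 3). The dimmest members were Foxa1, a transcription factor of luminal cells, at 4.18 ± 0.05 on arrays 1 and 2 and 4.21 ± 0.05 on arrays 4, 5 and 6, and the claudin Cldn3 at 4.07 ± 0.03 on arrays 1 and 2 and 4.06 ± 0.13 on arrays 4, 5 and 6. Both are known luminal genes and both were far under the background level on all 5 arrays.

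Further epithelial and enzyme genes were bright in control bladder 1 and 2. Sptssb, a small subunit of the enzyme that starts sphingolipid synthesis, read 11.97 and 12.64 on arrays 1 and 2, and 8.10, 8.49 and 8.55 on arrays 4, 5 and 6. Ivl (involucrin), an envelope protein of stratified epithelia, read 10.33 and 10.76 on arrays 1 and 2, and 7.81, 8.20 and 7.15 on arrays 4, 5 and 6. Gstm1, a glutathione transferase, read 11.71 and 11.95 on arrays 1 and 2, and 9.01, 9.40 and 8.72 on arrays 4, 5 and 6. These 3 genes were among the 10 with the highest difference between the sets, and were chosen by it. Of 11 basal urothelial genes 2 were above background on control bladder 1 and 2, a share near the 15.1% of all genes, and 0 on arrays 4, 5 and 6, against 9.32%. Krt5, the keratin of basal cells, read 8.08 and 8.16 on arrays 1 and 2, and 6.70, 6.58 and 6.76 on arrays 4, 5 and 6.

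Stroma was bright in both sets, though its members did not move together. The 21 measured fibroblast and matrix genes averaged 7.57 and 7.36 on arrays 1 and 2, and 6.97, 7.11 and 7.15 on arrays 4, 5 and 6. Of the 21, 14 stood above background on arrays 1 and 2 (15.1% of all genes) and 9 on arrays 4, 5 and 6 (9.32% of all genes). All 9 were above it on all 5 arrays. The difference of the list means was 0.39, but the median member differed by -0.01, so the mean rested on part of the list. Arrays 1 and 2 both lay above all of arrays 4, 5 and 6 in 9 of the 21 genes and below them in 1, against 11.3% and 14.6% of all genes.

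Sparc (osteonectin), a matrix glycoprotein, was the brightest of the list and nearly level over the arrays, with 10.09 and 9.99 on arrays 1 and 2, and 9.89, 9.92 and 9.95 on arrays 4, 5 and 6. Dcn (decorin), a proteoglycan that binds collagen fibrils, read 10.01 on control bladder 1 and ranked 39 of the protein-coding genes on arrays 1 and 2, against levels of 8.72, 8.76 and 8.76 and a rank of 58 on arrays 4, 5 and 6. Its set means differed by 1.25. Lum (lumican), of the same family, read 9.66 and 9.19 on arrays 1 and 2, and 7.56, 8.01 and 7.60 on arrays 4, 5 and 6. Dcn and Lum were thus both higher in control bladder 1 and 2. Dpt (dermatopontin), a further matrix protein, averaged 8.85 ± 0.38 on control bladder 1 and 2 (SD, n = 2) and 7.59 ± 0.23 on arrays 4, 5 and 6 (SD, n = 3). Fn1 (fibronectin) ran the other way, at 8.90 and 8.70 on arrays 1 and 2, and 9.09, 9.37 and 9.44 on arrays 4, 5 and 6. These matrix genes thus ran in both directions. The fibrillar collagen Col1a1 overlapped between the sets, with 7.79 and 7.46 on arrays 1 and 2, and 7.66, 7.61 and 7.81 on arrays 4, 5 and 6. Of the dimmest members, Col5a1 and the microfibril gene Mfap5 averaged 5.79 and 5.22 on arrays 1 and 2, and 5.94 and 5.22 on arrays 4, 5 and 6, below background.

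Housekeeping genes split by kind. The 42 measured ribosomal protein genes averaged 8.13 and 8.17 on arrays 1 and 2, and 7.78, 7.76 and 7.71 on arrays 4, 5 and 6. By annotation 39 of them are protein-coding and 3, Rpl6l, Rps3a2 and Rps3a3, are pseudogenes, and near-identical copies can share probe signal. Of the 42, 35 were above background on arrays 1 and 2 and 31 on arrays 4, 5 and 6. Of all genes 15.1% and 9.32% were, the shares to set beside the later counts of this paragraph too. Arrays 1 and 2 both lay above all of arrays 4, 5 and 6 in 19 and below them in 1, against 11.3% and 14.6% of all genes. Rpl37a read 12.43 and 12.51 on arrays 1 and 2, and 10.87, 10.81 and 10.80 on arrays 4, 5 and 6. The 12 translation factors averaged 8.10 ± 0.01 on arrays 1 and 2 (SD, n = 2) and 7.90 ± 0.05 on arrays 4, 5 and 6 (SD, n = 3), and the 12 chaperones 7.64 ± 0.03 on arrays 1 and 2 and 7.61 ± 0.04 on arrays 4, 5 and 6. Above background were 11 translation factors and 11 chaperones on arrays 1 and 2, and 9 and 7 on arrays 4, 5 and 6. The set means of the chaperones thus lay closer together than those of the translation factors. The chaperone means rested in part on Hspa8, whose set means differed by 1.68, control bladder 1 and 2 minus control bladder 4, 5 and 6. In the same direction, the median chaperone differed by -0.12 and the median translation factor by 0.23. Of 95 nuclear genes of oxidative phosphorylation 47 were above it on arrays 1 and 2 and 30 on arrays 4, 5 and 6, and of 10 cytoskeleton genes of all cells 6 on arrays 1 and 2 and 7 on arrays 4, 5 and 6. Of 12 immediate early genes, which respond fast to stimuli, 0 were above it in either set.

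Genes often used as a reference were not level over the 5 arrays as a group. Actb, the cytoskeletal beta actin, read 10.28 and 10.27 on arrays 1 and 2, and 9.29, 9.25 and 9.39 on arrays 4, 5 and 6. Gapdh, a glycolytic enzyme, overlapped between the sets, at 9.16 and 9.25 on arrays 1 and 2, and 9.36, 9.13 and 9.60 on arrays 4, 5 and 6. Rplp0, a protein of the ribosomal stalk, overlapped too, at 8.63 and 9.08 on arrays 1 and 2, and 8.87, 8.89 and 8.96 on arrays 4, 5 and 6. Pgk1, also of glycolysis, ran against Actb, with 5.61 and 5.54 on arrays 1 and 2, and 6.19, 6.42 and 7.11 on arrays 4, 5 and 6. Actb and Pgk1 thus differed in direction. Of the 11 measured, arrays 1 and 2 both lay above all of arrays 4, 5 and 6 in 4, against 11.3% of all genes, and below them in 2, a share near the 14.6% of all genes. Of 7 measured glycolysis genes 0 were higher in that sense and 4 lower, and their mean was 6.57 and 6.46 on arrays 1 and 2, and 6.84, 6.95 and 7.29 on arrays 4, 5 and 6.

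**Figure D3:**
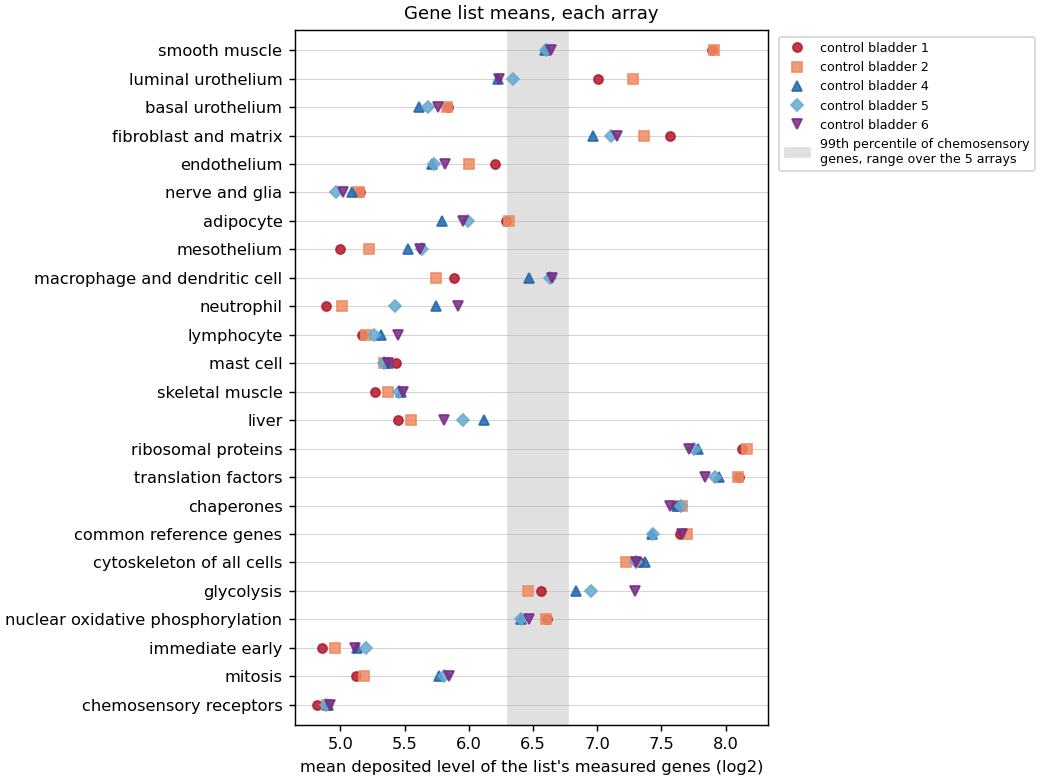
Mean deposited log2 level of each gene list's measured members (x axis), each point 1 array; the grey band is the range over the arrays of the 99th percentile of chemosensory receptor genes. Smooth muscle separates control bladder 1 and 2 (7.90 and 7.91) from control bladder 4, 5 and 6 (6.59 to 6.64) by the widest gap drawn. The macrophage, neutrophil and mitosis lists lie in the opposite order, as do mesothelium, lymphocyte, skeletal muscle, liver, glycolysis and immediate early genes.

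Macrophage, neutrophil and mitosis genes lay on the other side, though not alone. Of 14 macrophage and dendritic cell genes, 1 was higher and 12 lower on both arrays 1 and 2 than on all of arrays 4, 5 and 6, where 11.3% of all genes were higher and 14.6% lower. Lyz2 read 8.30 and 7.84 on arrays 1 and 2, and 9.18, 9.59 and 9.92 on arrays 4, 5 and 6. C1qb, a chain of complement C1q made by macrophages, read 4.82 and 4.51 on arrays 1 and 2, and 6.65, 7.46 and 6.41 on arrays 4, 5 and 6. Both genes were higher on each of arrays 4, 5 and 6. In each set 4 of the 14 were above background, where 15.1% of all genes were on arrays 1 and 2 and 9.32% on arrays 4, 5 and 6. Among 11 neutrophil genes 7 were lower and 0 higher, with 0 above background in either set. Among 14 mitosis genes 13 were lower and 0 higher, again with 0 above background. Of the other immune lists, 2 of 11 lymphocyte genes were lower and 0 higher, and 1 of 6 mast cell genes was lower and 1 higher, so the shares lower were near that of all genes. In lists of other tissues, 7 of 12 skeletal muscle, 5 of 7 liver and 4 of 6 mesothelium genes were lower, against 14.6% of all genes. Higher were 1, 0 and 0 of them, against 11.3%. The direction was thus not particular to immune and dividing cells. Mki67, the proliferation marker Ki-67, read 4.94 and 5.01 on arrays 1 and 2, and 6.85, 6.42 and 6.77 on arrays 4, 5 and 6.

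Markers of other cell types and organs were looked at as well. The lists of male accessory gland, lung epithelium, kidney tubule, lymphocyte, mast cell, mesothelium and nerve genes had 0 members above background in either set. The liver list had 1 of 7 in each, Trf (transferrin), which other tissues make as well, at 8.22 and 8.51 on arrays 1 and 2, and 8.76, 8.83 and 8.64 on arrays 4, 5 and 6. Alb, the defining liver gene, read 5.20 and 5.28 on arrays 1 and 2, and 6.16, 5.69 and 5.65 on arrays 4, 5 and 6, below background. Skeletal muscle had 1 of 12 in control bladder 1 and 2 and 0 in control bladder 4, 5 and 6, the alpha actin Acta1 at 6.32 and 6.45 on arrays 1 and 2, and 6.24, 5.91 and 6.17 on arrays 4, 5 and 6. No more than 1 member of any of these lists thus passed in either set. Of all genes 15.1% passed on arrays 1 and 2 and 9.32% on arrays 4, 5 and 6. In lists this short such counts do not show that a cell type is absent. Endothelium had 3 of 11 on arrays 1 and 2 and 0 on arrays 4, 5 and 6, led by Emcn (endomucin) at 7.41 and 7.20 on arrays 1 and 2, and 6.47, 5.93 and 6.28 on arrays 4, 5 and 6. Adipocyte genes had 3 of 11 on arrays 1 and 2 and 2 on arrays 4, 5 and 6. The lipid chaperone Fabp4 read 8.69 and 8.35 on arrays 1 and 2, and 7.41, 8.50 and 8.37 on arrays 4, 5 and 6, and Car3, a carbonic anhydrase of fat and muscle, 8.11 and 7.78 on arrays 1 and 2, and 6.22, 6.55 and 6.32 on arrays 4, 5 and 6. The part of such cells in the levels above was not tested.

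With predicted and small RNA genes left out, the gene with the highest difference between the sets was Xist, the RNA that coats the inactive X chromosome of females. It read 10.76 and 10.88 on arrays 1 and 2, and 5.95, 6.04 and 6.02 on arrays 4, 5 and 6, below background. The Y-linked gene Eif2s3y read 5.02 and 5.03 on arrays 1 and 2, and 5.87, 5.53 and 6.09 on arrays 4, 5 and 6, and Uty 5.14 and 5.28 on arrays 1 and 2, and 5.85, 5.93 and 5.95 on arrays 4, 5 and 6. Both Y-linked genes were below background on all 5 arrays, and their lowest levels were on arrays 1 and 2, where Xist was bright. With no sex in the labels, a difference of sex and the other differences between the sets cannot be told apart.

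Of the genes engineered in these mice, Rb1 read 6.30 and 6.17 on arrays 1 and 2, and 5.90, 6.40 and 6.12 on arrays 4, 5 and 6, with the sets overlapping. Rbl1, which codes for p107, read 6.33 and 6.28 on arrays 1 and 2, and 6.47, 6.83 and 6.63 on arrays 4, 5 and 6. Neither was above background on every array of a set. No source used here says where their probes lie relative to the engineered parts, so these levels do not check the genotype.

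Genes with the next highest differences included signalling genes. Sparcl1, a matrix protein related to Sparc, read 11.28 and 11.06 on arrays 1 and 2, and 7.76, 7.49 and 8.61 on arrays 4, 5 and 6. Bmp5, a bone morphogenetic protein, read 9.90 and 9.59 on arrays 1 and 2, and 6.74, 6.54 and 6.65 on arrays 4, 5 and 6. Hhip, a membrane protein that binds and restrains hedgehog ligands, read 9.29 and 8.78 on arrays 1 and 2, and 5.71, 5.70 and 6.00 on arrays 4, 5 and 6. Bmp5 thus ranked 49 of the protein-coding genes on arrays 1 and 2 and 1692 on arrays 4, 5 and 6, and Hhip 86 on arrays 1 and 2 and 6129 on arrays 4, 5 and 6. Among the 10 lowest differences, 4 were immunoglobulin segments, and the calgranulins S100a8 and S100a9 averaged 3.72 and 4.60 on arrays 1 and 2, and 6.40 and 7.11 on arrays 4, 5 and 6.

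**Figure D4:**
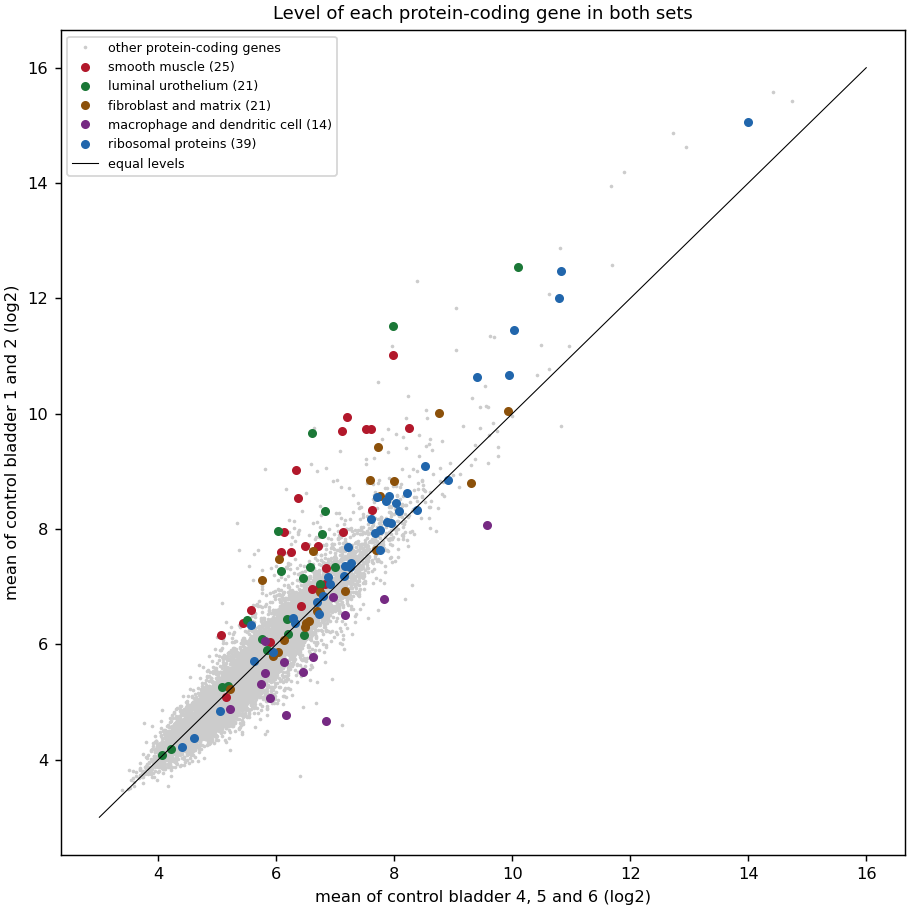
Mean log2 level of each protein-coding gene on control bladder 1 and 2 (y axis) against that on control bladder 4, 5 and 6 (x axis), with the protein-coding members of 5 gene lists coloured and the line of equal levels. Smooth muscle genes lie mostly above the line, by a median of 1.10, macrophage genes mostly below it, and nearly all of the brightest genes lie above it.

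The set mean of control bladder 4, 5 and 6 lay close to the average of the rest of the series. Taken singly, these arrays were no closer to it than arrays 1 and 2. Over all genes, the median absolute difference from the mean of the 15 other arrays was 0.15 on each of arrays 1 and 2. It was 0.17, 0.16 and 0.17 on arrays 4, 5 and 6. The distances that follow are of set means, and arrays 4, 5 and 6 differed more from one another than arrays 1 and 2. Against the mean of the 15 other arrays, the median absolute distance of the smooth muscle genes was 1.23 for control bladder 1 and 2 and 0.12 for control bladder 4, 5 and 6. For luminal urothelium it was 0.54 for control bladder 1 and 2 and 0.14 for control bladder 4, 5 and 6. For macrophage genes the values were 0.91 for control bladder 1 and 2 and 0.15 for control bladder 4, 5 and 6. Acta2 averaged 7.98 on arrays 4, 5 and 6 and 7.73 over the other 15 arrays, which ran from 5.94 to 12.16. By set mean, 412 of all genes lay more than 1 unit from the mean of the other 15 arrays on control bladder 1 and 2. On arrays 4, 5 and 6, 30 did. The sets were made from these data, with control bladder 4, 5 and 6 taken as near the mean, so these values are no independent check of it.

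Control bladder 1 and 2 were closer to each other than any 2 of control bladder 4, 5 and 6. The median absolute difference over all genes was 0.13 between 1 and 2, and 0.22 to 0.24 between pairs of the other 3. Between an array of 1 and 2 and an array of 4, 5 and 6 it was 0.21 to 0.22, so control bladder 4, 5 and 6 were about as far from each other as from control bladder 1 and 2. Genes that differed by more than 2-fold numbered 135 between 1 and 2, and from 1126 to 1394 in those pairs. Levels correlated across genes at r = 0.98 between 1 and 2, and 0.92 to 0.93 in the pairs, and 0.93 to 0.94 across the sets, with genes not independent of one another. The gap was seen for bright genes too: for the 179 protein-coding genes with a mean from 8 to 10, the median difference was 0.17 between 1 and 2 and 0.30 in the pairs. For the 15 from 10 to 12 it was 0.19 and 0.62, and for the 8 above 12 it was 0.03 and 0.17. These last bins hold few genes.

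**Figure D5:**
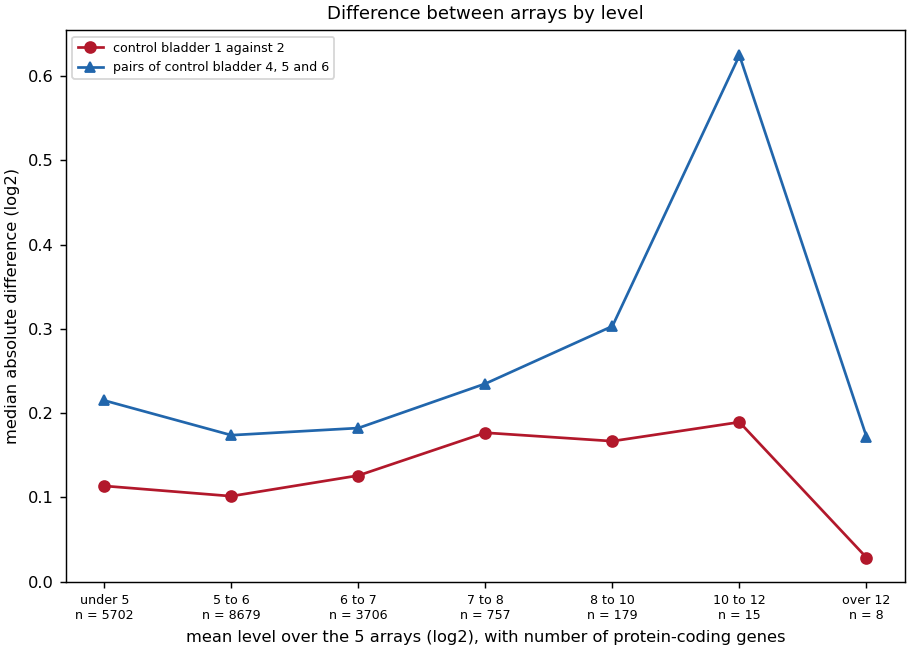
Median absolute log2 difference between arrays (y axis) for protein-coding genes grouped by mean level over the 5 arrays (x axis, with the number of genes). Control bladder 1 against 2 lies below the pairs of control bladder 4, 5 and 6 in every group, of which the 2 brightest hold only 15 and 8 genes.

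Between control bladder 1 and 2, some tissue lists leaned one way. In control bladder 1, 19 of 21 fibroblast and matrix genes and 10 of 11 endothelial genes were higher than in control bladder 2, with median differences of 0.17 and 0.27. In control bladder 2, 17 of 21 luminal urothelial genes were higher, and the median difference, control bladder 1 minus control bladder 2, was -0.26. Of all 30142 genes, 14846 were higher in control bladder 1 and 15295 in control bladder 2, with a median difference of -0.0034. Smooth muscle genes were split, with 13 higher in control bladder 1 and 12 in control bladder 2 and a median of 0.04, as were ribosomal protein genes, with 21 and 21. Upk1a differed by -1.11, and Lum by 0.47. With 1 array each, these differences have no replicate check.

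The genes that varied most within a set were mostly not tissue genes. Of the 10 genes with the largest difference between control bladder 1 and 2, 5 were antigen receptor segments and 2 chemosensory receptors. Of the 10 with the largest range over control bladder 4, 5 and 6, 3 were antigen receptor segments and 3 pseudogenes. Cbl, a ubiquitin ligase, read 11.36 and 11.28 on arrays 1 and 2, and 10.80, 9.86 and 8.43 on arrays 4, 5 and 6. It was thus bright in both sets and spread more widely over arrays 4, 5 and 6. S100a9 read 4.35 and 4.85 on arrays 1 and 2, and 7.41, 5.70 and 8.21 on arrays 4, 5 and 6.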

How the data were processed

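Total RNA came from fixed, embedded tissue, 12 ng of which went onto whole-transcript arrays of Affymetrix, as the labels' protocols state. The authors deposited log2 values that RMA produced in Affymetrix Expression Console (submitters' processing notes). RMA usually includes a quantile normalization, but the deposited arrays were not on 1 distribution: the 99th percentile over genes was 10.39 and 10.37 on control bladder 1 and 2, and 10.18, 10.06 and 9.94 on control bladder 4, 5 and 6. The table has 65956 rows and 20 arrays. By the platform annotation 30604 rows carry 1 symbol, 2146 carry several and were left out, and 33206 have none listed. Gene IDs updated the symbol of 827 rows. For 355 genes with more than 1 row, the brightest row on average over the 20 arrays stood for the gene.

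Python 3.11.15 with pandas 2.3.3 and numpy 2.4.6 ranked genes by set mean, averaged lists per array, and counted genes above the 99th percentile of chemosensory receptor genes; the code was tested on simulated data. No test was run, since the sets were made from the data. The 15 other arrays served as a reference for levels and deviations, with no test either. Members and lists were chosen with earlier results of these data known. Named genes are the 20 brightest of each set (among protein-coding genes too, a part added later), the 4 brightest and 2 dimmest of each list, the 10 highest and lowest set differences, the 10 largest differences within each set, and Rb1, Rbl1 and Xist, without predicted and small RNA genes; the text gives those that describe the tissue. Col1a1, Gm15501, Rpl6l, Rps3a2, Rps3a3, Cnn1, Des, Myocd, Myl9, Vcl, Actg2, Fn1, Eif2s3y and Uty were chosen after their values were seen. Part of the genotype is not reported here.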

Additional observations from a re-analysis of the deposited data

Results flagged for a closer look

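Among 247 list means and named genes, 11 had 1 of the 5 control arrays standing far from the other 4. For 5 draws from 1 normal distribution about 1 in 20 would, and the count is near that share. The share is only a rough guide, since the arrays fall into 2 sets and some genes were named for their range. The mean of the chemosensory receptor genes was 4.81 on control bladder 1, with the others from 4.89 to 4.92. On control bladder 4, Fabp4 was low at 7.41, against 8.35 to 8.69 on the others, and the pseudogene Rpl32-ps was low at 9.12, against 10.83 to 11.48. On the same array Arpc2, a subunit of the actin-nucleating Arp2/3 complex, was high at 8.86, as were Magea3 at 6.11 and the olfactory receptor gene Olfr470 at 6.62. On control bladder 6 the T cell gene Cd8a read 5.17, the synaptic gene Snap25 5.86 and the inducible chaperone Hspa1a 4.97. The seminal vesicle gene Svs2 read 5.13 on control bladder 5, and the kidney transporter gene Slc12a3 4.96 on control bladder 2. Apart from Fabp4, Arpc2, Rpl32-ps and Olfr470, these genes were below the background level on all 5 arrays, and Olfr470 passed it on control bladder 4 alone.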

How the results depend on the processing

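No paired analysis was possible because the results come from no test. Of 97 values under other settings, 77 stayed within 1.5 times the count or within 1 SD over arrays, and 20 did not. Background counts moved with the percentile: with the 95th, 9113 genes passed on control bladder 1 and 2 and 6439 on control bladder 4, 5 and 6, and with the highest receptor gene 378 and 202. The shared brightest genes were 44 of 50 and 170 of 200.

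For the smooth muscle, luminal urothelium, fibroblast and matrix, and ribosomal protein lists, control bladder 1 and 2 stayed above control bladder 4, 5 and 6 under every setting run, but the size of the gap depended on the setting. Fibroblast and matrix means moved about as much as their gap when medians were taken, and the ribosomal gap narrowed after another quantile normalization. For ribosomal proteins (8.15 and 7.75 as reported), control bladder 1 and 2 and control bladder 4, 5 and 6 gave 7.92 and 7.57 with all rows of a gene averaged, 8.01 and 7.81 after another quantile normalization, and 8.05 and 7.66 as medians of members; centring on array medians gave 7.71 for the second set. Smooth muscle gave 7.92 and 6.57 after centring and 7.70 and 6.65 as medians, and 7.80 after quantile normalization for the first set. Fibroblast and matrix gave 7.07 and 6.69 as medians.

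Leaving out 1 array gave 86 to 91 shared genes, 4771 to 5632 genes above background on control bladder 1 and 2 and 2986 to 3249 on control bladder 4, 5 and 6. With the same arrays left out, smooth muscle ran from 7.90 to 7.91 and 6.60 to 6.62, luminal urothelium from 7.01 to 7.28 and 6.23 to 6.29, fibroblast and matrix from 7.36 to 7.57 and 7.04 to 7.13, and ribosomal proteins from 8.13 to 8.17 and 7.73 to 7.77. Restricting the ranking to protein-coding genes, chosen after the data were seen, gave 65 shared genes. Signal over background could not be measured without scanner files, so dim genes have no firm floor.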
